A study of Homo sapiens with 6 samples.

Results

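Kinesins, tubulins and proteins of the mitotic spindle and of cytokinesis were read in Capan1 cells, a well differentiated human pancreatic cancer line, that had grown with or without pancreatic stellate cells. The set was chosen by gene symbol. It takes in every gene named KIF or KIFC with a number, every gene whose symbol starts with TUBA, TUBB or TUBG, and 16 named spindle, cytokinesis and chromosome genes, with pseudogenes left out. Because the TUBG stem also opens the names of the gamma-tubulin complex proteins, TUBGCP2, TUBGCP4, TUBGCP5 and TUBGCP6 were included. By symbol 120 probes for 83 genes belonged to the set, and 74 probes for 56 genes were detected on at least 3 of the 6 arrays and were tested among 18165 probes and 10781 named genes in all. Of the 46 probes below that limit, 34 were detected on no array, 10 on 1 array and 2 on 2 arrays. The 27 genes with no probe above it were KIF12, KIF13A, KIF17, KIF19, KIF1A, KIF21B, KIF25, KIF26A, KIF26B, KIF27, KIF2B, KIF3A, KIF3C, KIF4B, KIF5A, KIF5C, KIF6, KIF9, KIFC3, TUBA3C, TUBA3E, TUBA4B, TUBA8, TUBB1, TUBB4A, TUBB8 and TUBGCP3.

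At the limit, a KIF1B probe detected on 3 arrays was just inside, with log2 levels of 5.26, 5.34 and 4.74 with stellate cells and 5.29, 4.77 and 5.60 without. A KIF3C probe detected on 2 arrays was just outside, with 4.75, 5.20 and 4.78 against 5.47, 4.94 and 4.75. A second TUBGCP6 probe, also detected on 2 arrays, read 5.40, 5.17 and 4.72 against 4.97, 4.79 and 4.88. Levels at this limit lay close together in both groups. Of the 74 tested probes 65 were detected on all 6 arrays, and none was undetected throughout a group.

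Microtubules are hollow filaments of alpha- and beta-tubulin that grow from gamma-tubulin complexes. Kinesins are motor proteins that walk along them or take apart their ends. One class of kinesins works in dividing cells, where it separates the spindle poles, moves chromosomes and builds the central spindle, and another class carries cargo such as vesicles in cells at any stage. Many genes of the first class, and of the spindle and cytokinesis proteins that work with them, are transcribed mainly in G2 and mitosis, whereas tubulins also form the interphase network.

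The comparison asks how the presence of stellate cells alters transcripts of the cancer cells. In 1 group of 3 samples Capan1 cells lay on a gel of type I collagen and Matrigel in which cells of PS1, a pancreatic stellate line, had been embedded. In the other group of 3 samples the titles give Capan1 only. Per the labels' protocols, gels were raised onto a grid after 24 hours and fed from underneath, gels were collected on day 10, and the upper layer of cancer cells was cut from frozen sections by laser for RNA. A single cancer line and a single stellate line were used, and whether the replicates were separate cultures is not stated in any source used here. The p-values therefore rest on the spread among these 6 samples, which may be technical. A label naming PS1 as the exposure stands on all 6 samples, and the groups used here follow the titles and source names. All levels below are log2 intensities after background correction and quantile normalization, and every change is the mean with stellate cells minus the mean without, with its standard error. An adjusted p is limma's, corrected over all 18165 probes by the Benjamini-Hochberg method, with a threshold of 0.05.

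The 6 arrays had mean raw signals of 273 to 494 and 16325 to 19602 detected probes. Replicate 3 with stellate cells stood apart by ribosomal RNA. One 28S probe read 12.85 there against 5.97 to 8.32 on the other arrays, and its 18S probe read 12.10 against 7.11 to 8.78. That array was the highest of the 3 arrays with stellate cells for 47 of the 74 member probes, or 63.51%, against 39.02% of all tested probes. The part of RNA quality in the results below was not tested, and counts without that array are given beside the member counts and, where they differ, the list counts.

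Genes for mitotic kinesins, for spindle and cytokinesis proteins and for several tubulins were lower in Capan1 cells grown with stellate cells. The other kinesins, mostly transport motors, did not pass the test in either direction. Of the 74 member probes 36, for 29 genes, fell and none rose. The 36 were 48.65% of the members, against a background of 2.00% of all tested probes called lower. Over all probes 2.01% were called higher, and 4.02% in either direction. The median log2 change was -0.84 over the members and -0.01 over all tested probes. It was -1.25 over the 36 that fell, which ranged from -1.65 for KIF23 to -0.61 for CKAP5. At an unadjusted p under 0.05 there were 51 member probes and 3331 of all tested probes. In 46 member probes every array with stellate cells was below every array without, where 11.8% of all tested probes had that order, and in 2 member probes the order was the opposite, also against 11.8%. In these bulk samples fewer cells in division and less RNA of these genes per cell cannot be told apart.

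**Figure D1:**
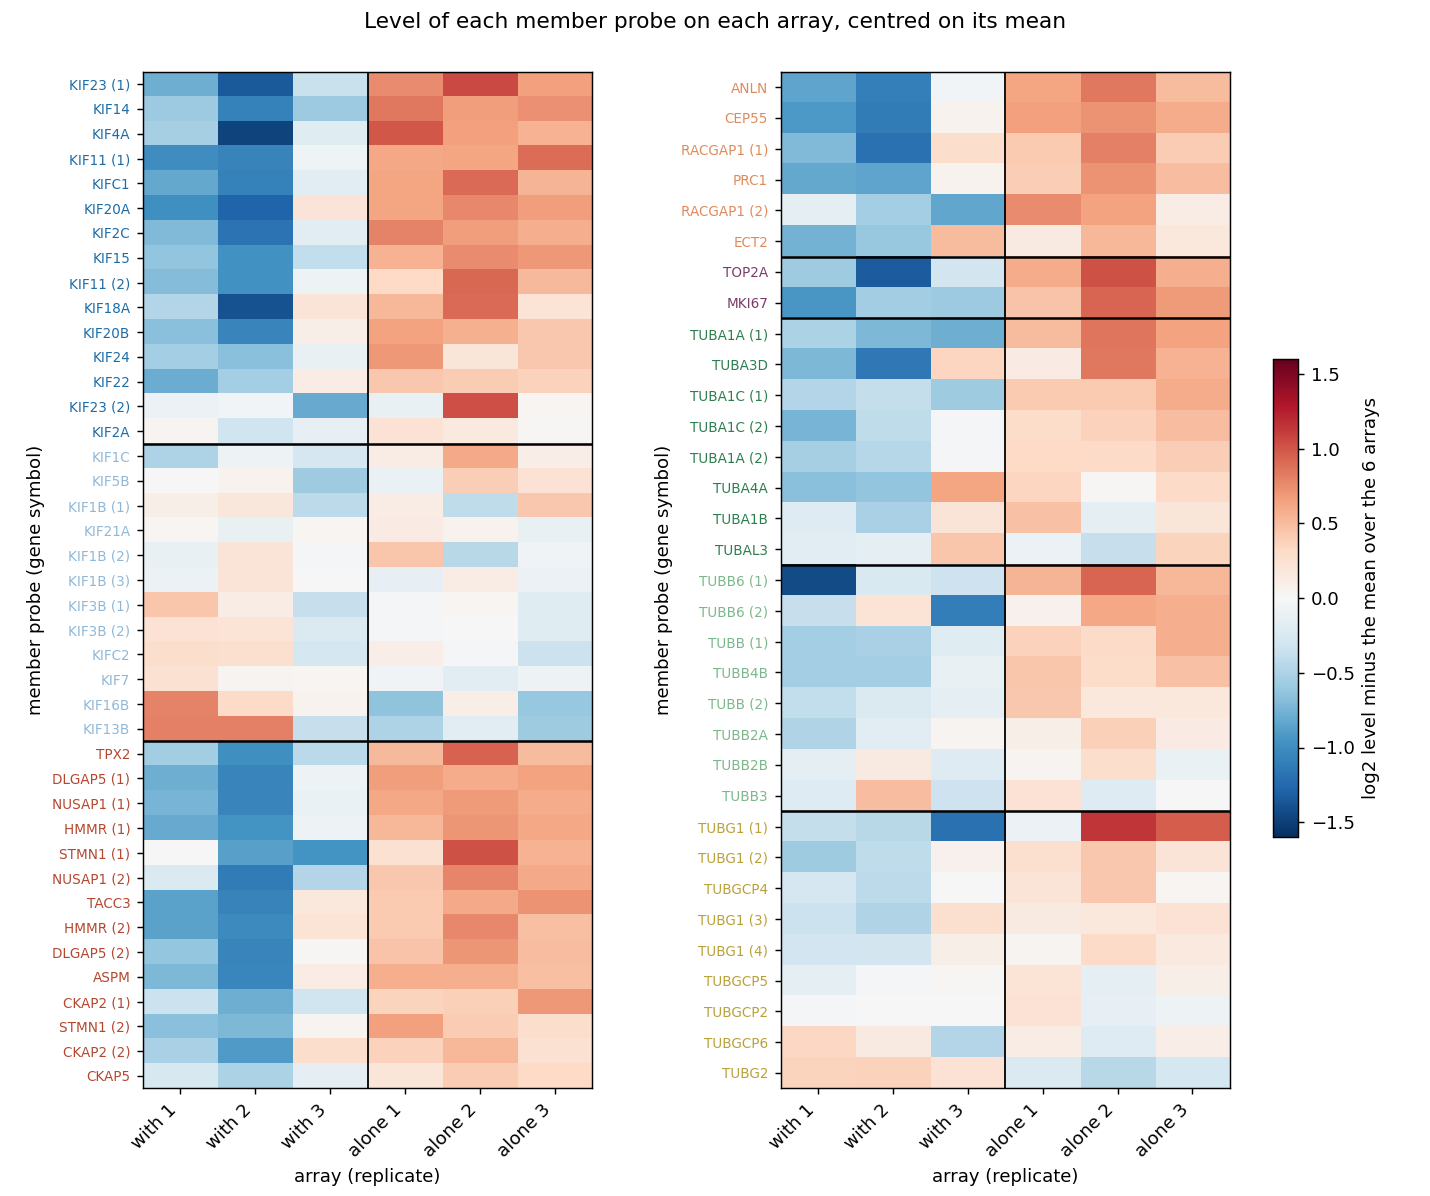
Log2 level of each of the 74 member probes on each of the 6 arrays minus that probe's mean, in blue where lower and red where higher, with role groups set apart by black lines and by label colour, and numbers in brackets for probes of the same gene. Mitotic kinesins, spindle, cytokinesis and chromosome genes are mostly blue on replicates 1 and 2 with stellate cells and paler on replicate 3, while the block of other kinesins has no such split.

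The plot of centred levels shows how even the 3 arrays without stellate cells were and how the 3 arrays with them differed. Over the 36 probes that fell, the median SD was 0.48 among arrays with stellate cells and 0.15 among arrays without. Over all tested probes the same medians were 0.26 and 0.20. The count of 36 depended on which arrays were in the fit. Without replicate 3 with stellate cells 51 member probes were lower and 3 higher, namely KIF13B, KIF16B and TUBG2. In that fit 1392 of all 18165 tested probes were lower and 1352 higher. Members were thus not called higher more often than probes in general. Without replicate 1 or 2 with stellate cells 14 and 19 members were lower, against 98 and 164 of all tested probes. Without replicate 1, 2 or 3 of Capan1 alone 17, 6 and 10 members were lower, against 134, 83 and 65 of all tested probes. In each of these fits all 36 stayed below zero. With no overlap between the groups in any of the 36, their sign could hardly turn. In every one of these fits 6 probes passed, for TUBA1A, TUBA1C, KIF14, KIF23, KIF15 and TPX2.

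**Figure D2:**
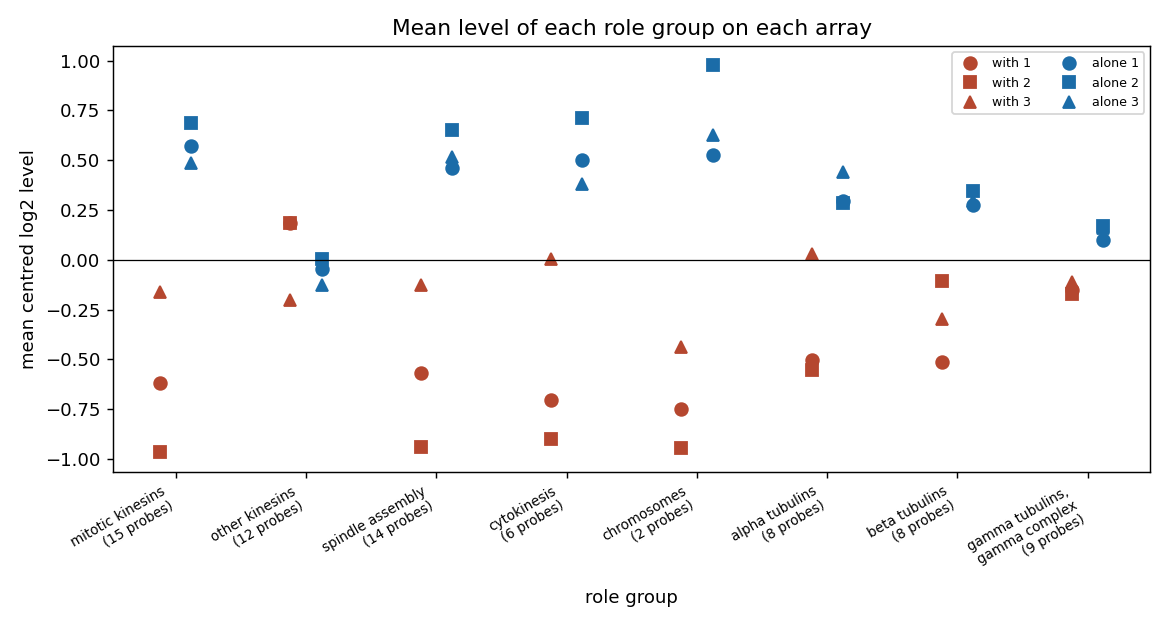
Mean over the probes of each role group of the log2 level centred on each probe's mean, for each array, in red with stellate cells and blue without, with a symbol for each replicate. For mitotic kinesins the arrays with stellate cells are at -0.62, -0.97 and -0.16 and the arrays without at 0.57, 0.69 and 0.49, while for the other kinesins the range is -0.20 to 0.18.

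Promoters are shown first because many of these genes carry the same pair of short elements. The cell cycle homology region has the core TTTGAA and is bound by the MuvB complexes that repress or activate mitotic genes, and CCAAT is the box bound by NF-Y. RefSeq promoters, 250 bases before to 50 after the gene start on GRCh38.p14, were held for 51 of the 56 member genes and were searched on both strands. There was no entry for TPX2, RACGAP1, KIF13B, TUBGCP4 or KIFC2. TTTGAA was found in 15.2% of all 35116 promoters and in 10.7% of the promoters of genes with a tested probe, and CCAAT in 34.6% and 35.3%. Of 27 mitotic kinesin, spindle, cytokinesis and chromosome genes, 19 held TTTGAA (70.4%), 21 held CCAAT (77.8%) and 17 held both (63.0%). Both were in 5.90% of all promoters and in 4.38% of those of genes with a tested probe. Each member gene was read by 1 promoter, whereas these wider shares count every promoter entry of a gene. Of 7 other kinesins 1 held TTTGAA, and of 17 tubulin and gamma complex genes 2 did. Matches are descriptions of letters and not of bound sites. By call, TTTGAA was in 19 of the 28 genes with a probe that fell and in 3 of the 23 with none, and CCAAT in 22 and 11. This split by call largely repeats the split by role group. Members and motifs were also chosen with earlier results known, so it is a description and not a test.

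The stretches below are the 150 bases before the gene start, 5′ to 3′ on the gene's strand, with matches to either motif, on either strand, in capitals. They were chosen after the positions of the matches were seen. The first 6 are genes that fell and in which a CCAAT match lies before a TTTGAA match near the start, TUBA1A is a tubulin that fell with no TTTGAA, and KIF5B is the only kinesin outside the mitotic class with TTTGAA among those with an entry.
KIF23 (chr15:69414199-69414348, plus strand): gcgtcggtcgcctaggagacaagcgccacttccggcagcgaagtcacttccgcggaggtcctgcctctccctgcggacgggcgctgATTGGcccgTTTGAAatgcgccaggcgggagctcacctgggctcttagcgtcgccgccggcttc
KIF11 (chr10:92592980-92593129, plus strand): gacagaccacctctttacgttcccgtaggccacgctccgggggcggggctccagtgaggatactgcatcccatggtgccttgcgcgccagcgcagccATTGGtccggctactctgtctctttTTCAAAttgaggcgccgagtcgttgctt
KIF4A (chrX:70289954-70290103, plus strand): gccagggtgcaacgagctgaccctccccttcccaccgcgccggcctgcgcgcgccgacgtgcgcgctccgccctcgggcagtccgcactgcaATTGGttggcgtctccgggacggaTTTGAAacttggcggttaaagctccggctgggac
HMMR (chr5:163460482-163460631, plus strand): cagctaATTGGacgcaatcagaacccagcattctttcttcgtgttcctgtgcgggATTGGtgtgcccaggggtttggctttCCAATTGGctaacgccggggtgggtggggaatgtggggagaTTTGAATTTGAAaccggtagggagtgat
PRC1 (chr15:90994536-90994685, minus strand): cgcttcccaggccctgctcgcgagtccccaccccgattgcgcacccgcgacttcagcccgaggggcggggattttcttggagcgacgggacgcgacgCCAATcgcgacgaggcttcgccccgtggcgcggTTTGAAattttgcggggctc
MKI67 (chr10:128126424-128126573, minus strand): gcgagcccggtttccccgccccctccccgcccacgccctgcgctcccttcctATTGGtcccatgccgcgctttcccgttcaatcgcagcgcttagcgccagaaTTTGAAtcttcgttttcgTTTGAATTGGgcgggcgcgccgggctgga
TUBA1A (chr12:49189081-49189230, minus strand): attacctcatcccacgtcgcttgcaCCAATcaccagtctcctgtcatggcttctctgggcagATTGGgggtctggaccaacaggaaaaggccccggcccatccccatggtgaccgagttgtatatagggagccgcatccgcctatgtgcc
KIF5B (chr10:32056426-32056575, minus strand): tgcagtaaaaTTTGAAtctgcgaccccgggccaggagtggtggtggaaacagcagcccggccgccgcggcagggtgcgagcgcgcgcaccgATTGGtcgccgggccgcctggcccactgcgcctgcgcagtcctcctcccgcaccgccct
In these stretches KIF23 has its TTTGAA match at base -55 and its CCAAT match at -64, and PRC1 at -20 and -53. HMMR holds TTTGAA at -28 and -22, side by side. In MKI67 the TTTGAA match at -29 overlaps a CCAAT match at -24, the only member promoter with such an overlap. In KIF5B the order is the opposite, with TTTGAA at -140 and CCAAT at -59.

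**Figure D3:**
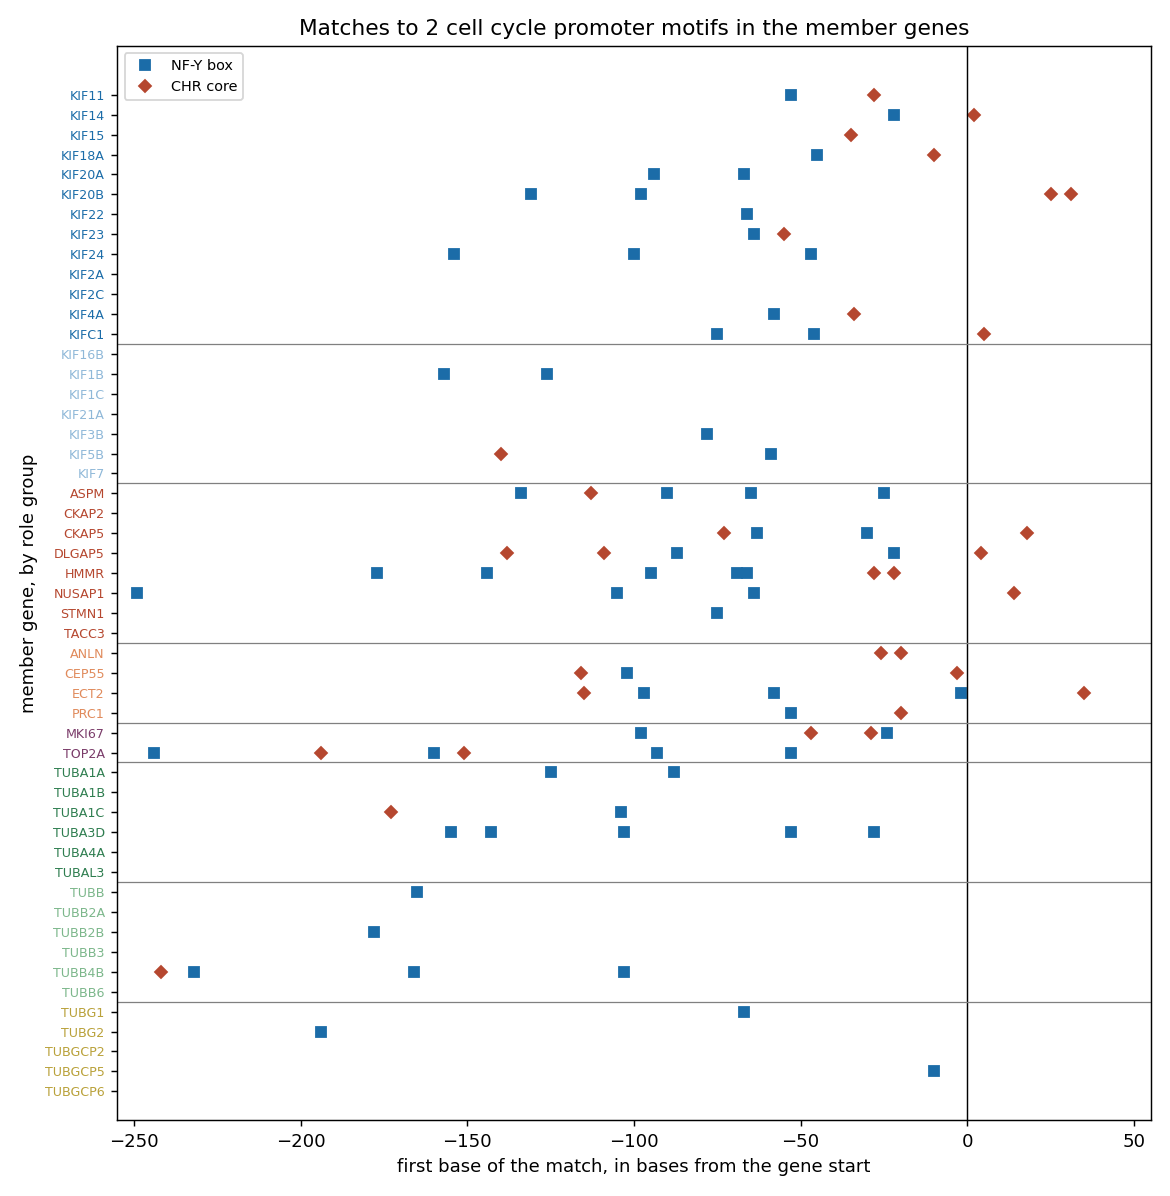
First base of each match to TTTGAA (diamonds, CHR core) and CCAAT (squares, NF-Y box) in bases from the gene start, for the 51 member genes with a promoter entry, ordered by role group. In the 27 mitotic kinesin, spindle, cytokinesis and chromosome genes the 29 TTTGAA matches have a median first base of -28 and the 43 CCAAT matches a median of -69.

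Mitotic kinesins were lower for most of their genes. Of their 15 probes 10 fell, for 9 of 13 genes, none rose, and the median change was -1.33. KIF23, the motor subunit of the centralspindlin complex at the spindle midzone, read 6.89, 6.33 and 7.31 with stellate cells and 8.43, 8.72 and 8.32 without. Its change of -1.65 ± 0.25 was 3.14-fold (limma adjusted p = 0.0041), and the 2 groups did not overlap. Its promoter is the first printed above. A second KIF23 probe, below detection on 1 array with stellate cells, did not pass (-0.63, adjusted p = 0.357).

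KIF14, a motor that works with the citron kinase in abscission, read 7.17, 6.68 and 7.17 against 8.60, 8.43 and 8.48, a 2.83-fold difference (adjusted p = 0.0021). KIF15, which helps to hold the spindle poles apart, read 6.64, 6.30 and 6.88 against 7.82, 8.02 and 7.97 (-1.33 ± 0.21, adjusted p = 0.0052). Between the highest array with stellate cells and the lowest without, the gap was 1.26 for KIF14 and 0.94 for KIF15. KIFC1, the minus-end motor that clusters spindle poles, read 7.96, 7.69 and 8.61 against 9.41, 9.69 and 9.32 (-1.39 ± 0.23, adjusted p = 0.0065). Here replicate 3 was the nearest to the other group, as it was the highest of its group in 13 of the 15 probes of this class.

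KIF11, which slides antiparallel microtubules to separate the poles, fell by both of its probes, with changes of -1.42 and -1.16. KIF2C, which takes apart microtubule ends at centromeres, fell by 1.37. KIF4A, a chromosome-arm motor that shortens the central spindle, fell by 1.47. Its sequence is close to that of KIF4B, so the probe's reading may hold both, though the KIF4B probe was detected on no array. KIF20A, which moves the passenger complex to the midzone, fell by 1.38. KIF20B, a midzone motor, read 8.63, 8.24 and 9.39 against 9.95, 9.88 and 9.74 (-1.10 ± 0.24, adjusted p = 0.0274). The groups did not overlap, but replicate 3 with stellate cells was only 0.34 below the lowest array without.

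KIF22, which pushes chromosome arms away from the poles, did not pass (adjusted p = 0.0524). It read 9.10, 9.35 and 10.02 against 10.33, 10.30 and 10.26, with no overlap. KIF24 (-0.89, adjusted p = 0.0684) and KIF18A (-1.10, adjusted p = 0.105) also did not pass. KIF2A, which is used in interphase and in neurons as well as at the spindle, had the change nearest to zero of its class, -0.27 ± 0.18 (adjusted p = 0.475). The count of 10 became 5, 7 and 13 without replicates 1, 2 and 3 with stellate cells, and 6, 3 and 5 without replicates 1, 2 and 3 of Capan1 alone.

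**Figure D4:**
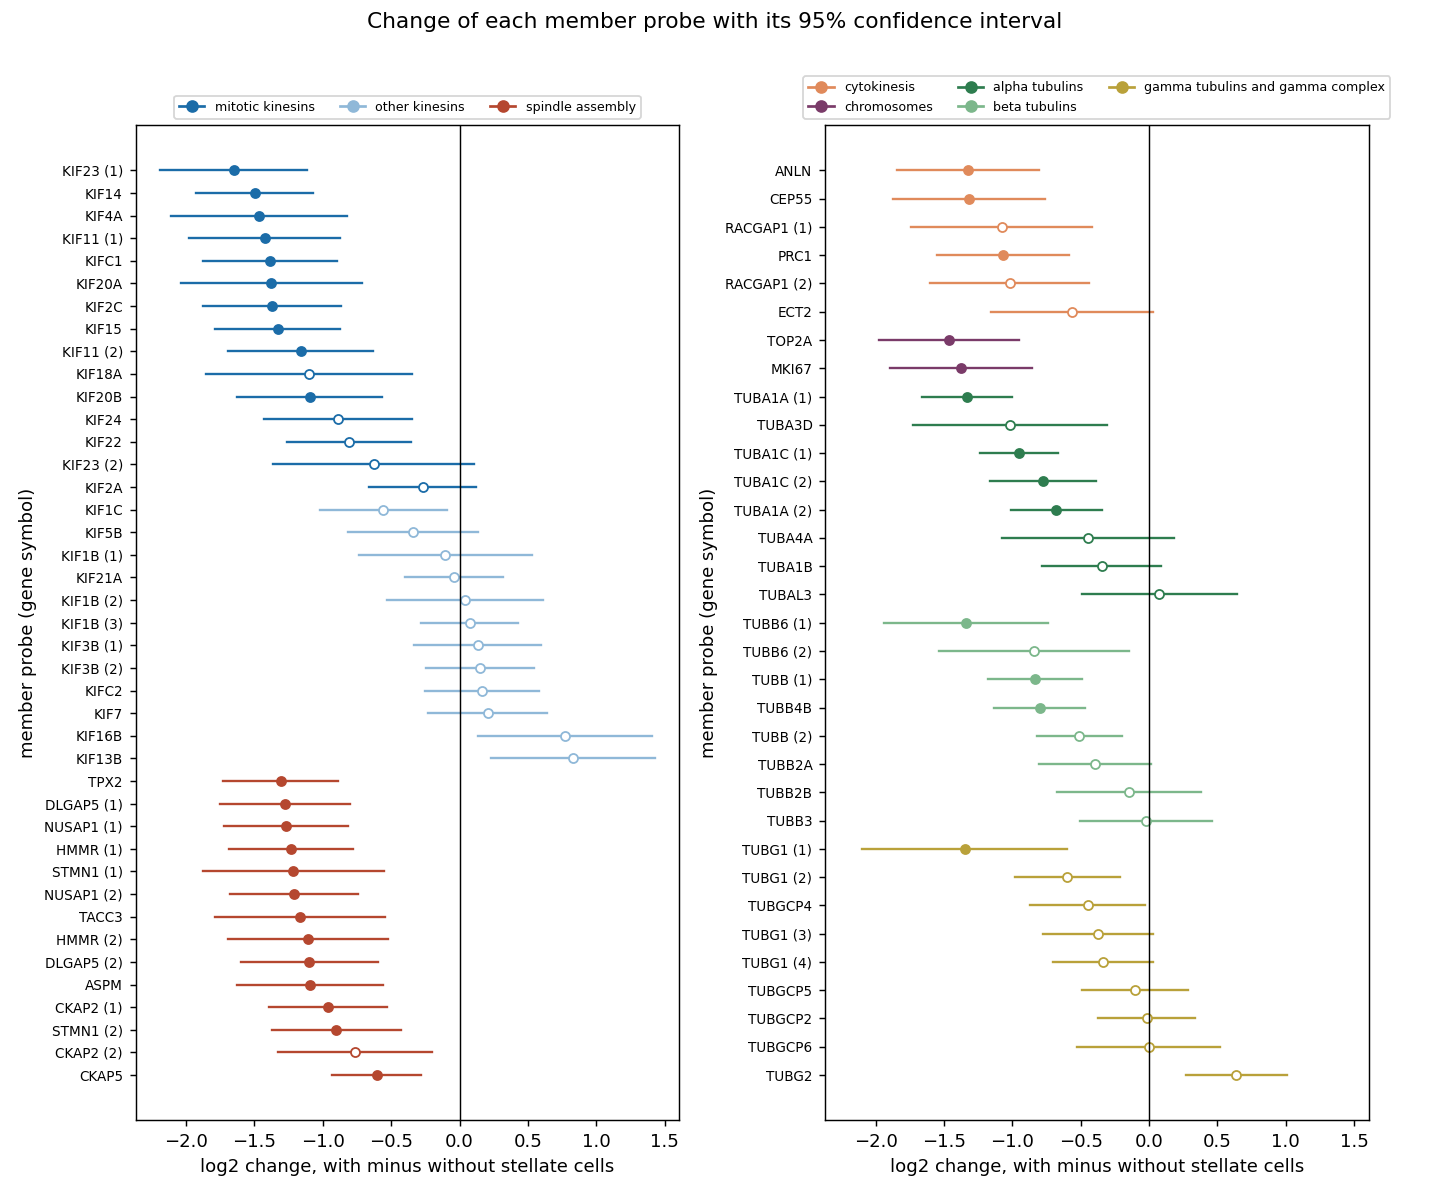
Log2 change of each member probe, with minus without stellate cells, with its 95% confidence interval from limma, by role group. Filled points fell at an adjusted p under 0.05, and all 36 of them lie left of zero, from -1.65 to -0.61. Open points did not pass, and the 12 other kinesins, all open, lie from -0.56 to 0.83.

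No kinesin of the other class, mostly transport motors, passed the test. None of their 12 probes for 9 genes passed in either direction in limma, where the smallest adjusted p was 0.125 and 3 had an unadjusted p under 0.05. Their median change was 0.10. KIF13B, a motor of membrane cargo, read 10.19, 10.19 and 9.02 with stellate cells and 8.89, 9.21 and 8.81 without (0.83 ± 0.27, adjusted p = 0.125). Replicates 1 and 2 were well above every array without stellate cells, whereas replicate 3 was within their range. Without replicate 3 the change was 1.21 (adjusted p = 7.94e-05).

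KIF16B, a motor of early endosomes, read 6.31, 5.82 and 5.56 against 4.86, 5.61 and 4.90, and passed detection on 3 and 1 arrays of the respective groups (0.77 ± 0.29, adjusted p = 0.177). Without replicate 3 the change was 0.99 (adjusted p = 0.0397). KIF1C, which moves vesicles and messenger RNA, read 6.86, 7.27 and 7.08 against 7.47, 7.95 and 7.46 (-0.56 ± 0.21, adjusted p = 0.182). It was the only other kinesin with all 3 arrays with stellate cells below all 3 without. KIF5B, the ubiquitous conventional kinesin heavy chain, read 7.96, 8.02 and 7.40 against 7.85, 8.35 and 8.20 (-0.34 ± 0.22, adjusted p = 0.448).

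KIFC2, a minus-end motor, read 9.72, 9.70 and 9.16 against 9.55, 9.43 and 9.11 (0.17 ± 0.19), and the groups overlapped. KIF3B, a subunit of the motor of ciliary transport, had changes of 0.15 and 0.13 by its probes, and KIF7, a hedgehog pathway kinesin of the cilium tip, 0.21. KIF21A had a change of -0.04 and the 3 KIF1B probes of 0.07, 0.04 and -0.11, and none of them passed. With arrays scaled to a common median in place of quantile normalization, the median of all tested probes was -0.20, and KIF7, KIFC2, KIF3B and the KIF1B probes that had been above zero were below it, between -0.19 and -0.0058, though above that median.

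Spindle assembly genes fell almost throughout. Of 14 probes 13 fell, each of the 9 genes had a probe that fell, and the median change was -1.14. TPX2, which activates the kinase AURKA and starts microtubule growth near chromosomes, read 8.51, 8.08 and 8.64 with stellate cells and 9.58, 10.00 and 9.57 without (-1.31 ± 0.19, 2.48-fold, adjusted p = 0.0039). NUSAP1, which bundles microtubules at chromosomes, read 9.75, 9.43 and 10.39 against 11.12, 11.17 and 11.09 (-1.27 ± 0.21, adjusted p = 0.0067). Its second probe fell by 1.21. Neither gene's groups overlapped, and the arrays of Capan1 alone spanned 0.43 for TPX2 and 0.08 for NUSAP1.

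HMMR, a hyaluronan receptor that also binds the spindle, read 9.29, 9.14 and 10.02 against 10.64, 10.80 and 10.71 (-1.24 ± 0.21, adjusted p = 0.0076), and its second probe fell by 1.11. DLGAP5, which stabilises fibres at kinetochores, read 8.99, 8.71 and 9.69 against 10.45, 10.37 and 10.42 (-1.28 ± 0.22, adjusted p = 0.0080), and its second probe fell by 1.10. For both genes replicate 3 was the highest of the arrays with stellate cells and still below all arrays without. ASPM, which focuses spindle poles, fell by 1.10 and TACC3, a clathrin-linked bridge between spindle fibres, by 1.17. CKAP2 fell by 0.96 with 1 probe and did not pass with the other (-0.77, adjusted p = 0.131).

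CKAP5, the microtubule polymerase, had the smallest change of the probes that fell and read 10.38, 10.12 and 10.48 against 10.82, 11.04 and 10.95 (-0.61 ± 0.15, adjusted p = 0.0441). STMN1, which binds free tubulin and is switched off by phosphorylation in mitosis, read 8.01, 7.96 and 8.72 against 9.34, 9.09 and 8.97 (-0.90 ± 0.22, adjusted p = 0.0399). Its second probe, below detection on 2 arrays with stellate cells, read 6.0, 5.12 and 5.05 against 6.25, 7.02 and 6.56 (-1.22 ± 0.30, adjusted p = 0.0463). Without background correction the change of that probe was -0.50 (adjusted p = 0.0511). The groups of both STMN1 probes did not overlap, though replicate 3 of the first and replicate 1 of the second were 0.25 below the lowest array of the other group.

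Cytokinesis genes fell in part. Of 6 probes for 5 genes 3 fell, and the median change was -1.07. ANLN, the scaffold of the contractile ring, read 8.54, 8.29 and 9.34 against 10.02, 10.23 and 9.90 (-1.32 ± 0.24, adjusted p = 0.0104). CEP55, which recruits the abscission machinery to the midbody, read 8.20, 8.01 and 9.18 against 9.78, 9.84 and 9.72 (-1.32 ± 0.26, adjusted p = 0.0156). PRC1, which crosslinks antiparallel microtubules of the central spindle, read 10.24, 10.22 and 11.12 against 11.46, 11.78 and 11.55 (-1.07 ± 0.22, adjusted p = 0.0201). In these 3 genes the groups did not overlap and replicate 3 was the array with stellate cells nearest to those without.

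The partner of KIF23 in centralspindlin, the GTPase-activating protein RACGAP1, did not pass with either probe (-1.02, adjusted p = 0.0541, and -1.08, adjusted p = 0.0717). ECT2, the exchange factor that switches on RHOA at the furrow, read 10.14, 10.29 and 11.39 against 11.04, 11.43 and 11.05 (-0.57 ± 0.27, adjusted p = 0.296). Replicate 3 was above 2 of the 3 arrays without stellate cells, so the groups overlapped.

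Both chromosome genes fell. TOP2A, the topoisomerase that untangles sister chromatids, read 11.08, 10.32 and 11.36 against 12.25, 12.68 and 12.23 (-1.46 ± 0.23, 2.76-fold, adjusted p = 0.0059). MKI67, whose protein Ki-67 coats mitotic chromosomes and is the usual marker of cycling cells, read 4.92, 5.29 and 5.27 against 6.31, 6.78 and 6.53 (-1.38 ± 0.24, adjusted p = 0.0091). In the group with stellate cells the probe of MKI67 passed detection on 1 array of 3, so its change is close to the floor of the assay. It met the detection limit only through the arrays without stellate cells, where it was higher. The same holds for the second STMN1 probe and the TUBG1 probe that fell. A limit met in this way favours a lower call. Of the 36 probes that fell, 33 were detected on all 6 arrays. Over the 22 probes of spindle, cytokinesis and chromosome genes the 18 that fell became 6, 9 and 22 without replicates 1, 2 and 3 with stellate cells, and 8, 1 and 3 without replicates 1, 2 and 3 of Capan1 alone.

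Among alpha tubulins TUBA1A and TUBA1C passed the test. Of 8 probes for 6 genes 4 fell, both probes of each of these genes, and the median change was -0.73. The first TUBA1A probe read 10.29, 10.08 and 10.02 with stellate cells and 11.30, 11.65 and 11.44 without (-1.33 ± 0.15, 2.52-fold), with the smallest adjusted p of the set, 0.0010. Its second probe read 12.89, 12.97 and 13.40 against 13.75, 13.73 and 13.81 (-0.68 ± 0.15, adjusted p = 0.0286). The first TUBA1C probe read 12.36, 12.44 and 12.25 against 13.24, 13.24 and 13.42 (-0.95 ± 0.13, adjusted p = 0.0027), and the second fell by 0.78. By the first probe of each gene replicate 3 was the lowest array with stellate cells, unlike in most mitotic genes, and by the second probe it was the highest. TUBA1A, TUBA1B and TUBA1C are near-identical, so a probe's signal may hold more than 1 of them.

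TUBA1B, the most widely expressed alpha tubulin, read 13.23, 12.92 and 13.65 against 13.90, 13.30 and 13.64 (-0.35 ± 0.20, adjusted p = 0.397), and its groups overlapped. TUBA3D (-1.02, adjusted p = 0.112) and TUBA4A (-0.45, adjusted p = 0.454) did not pass. TUBAL3 had a change of 0.08. Without replicate 3 with stellate cells TUBA3D (-1.44, adjusted p = 0.000266), TUBA4A (-0.86, adjusted p = 0.00107) and TUBA1B (-0.52, adjusted p = 0.0484) passed as lower.

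Beta tubulins fell by 3 of 8 probes, for 3 of 6 genes, with a median of -0.66. TUBB, the common beta tubulin, read 9.43, 9.46 and 9.78 against 10.34, 10.29 and 10.55 (-0.83 ± 0.16, adjusted p = 0.0140). TUBB4B, also widely expressed, read 11.14, 11.14 and 11.57 against 12.13, 11.98 and 12.15 (-0.80 ± 0.15, adjusted p = 0.0148). TUBB6 read 7.38, 8.56 and 8.48 against 9.35, 9.74 and 9.34 (-1.34 ± 0.28, adjusted p = 0.0199), with replicate 1 far below the other arrays with stellate cells. The second probes of TUBB (-0.51, adjusted p = 0.0690) and TUBB6 (-0.84, adjusted p = 0.176) did not pass, though both were negative.

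TUBB2A (-0.40), TUBB2B (-0.15) and TUBB3, the isotype best known from neurons (-0.02), did not pass. The second TUBB probe read 11.27, 11.43 and 11.52 against 12.09, 11.83 and 11.83, with no overlap. Beta tubulins also share long stretches of sequence, and their assignment to single genes is uncertain in the same way.

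Gamma tubulins and their complex were mostly not past the threshold. Of 9 probes for 6 genes 1 fell, and the median change was -0.34. That probe was for TUBG1, the gamma-tubulin of most cells, and read 5.45, 5.39 and 4.63 against 5.75, 6.97 and 6.81 (-1.35 ± 0.34, adjusted p = 0.0498). In the group with stellate cells it passed detection on 2 arrays of 3. Without background correction its change was -0.57 (adjusted p = 0.0537) and in the authors' deposited value table -0.54 (adjusted p = 0.0535), and it did not pass in the fits with no intensity trend, with brightness as a covariate, with a filter on mean level, or in 4 of the 6 fits without 1 array. The other 3 tested TUBG1 probes did not pass, with changes of -0.60 (adjusted p = 0.0848), -0.37 and -0.34. TUBG2, the second gamma-tubulin gene, had the opposite sign and read 8.43, 8.45 and 8.31 against 7.85, 7.63 and 7.80 (0.64 ± 0.17, adjusted p = 0.0572). All 3 arrays with stellate cells were above all 3 without, and without replicate 3 the change was 0.68 (adjusted p = 0.0117).

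TUBGCP4 (-0.45, adjusted p = 0.237), TUBGCP5 (-0.11), TUBGCP2 (-0.02) and TUBGCP6 (-0.0039) did not pass. TUBG1 also had a bright probe, which read 10.57, 10.43 and 11.17 against 11.06, 11.08 and 11.14, with replicate 3 above every array without stellate cells. For tubulins and the gamma complex as a whole, 8 of 25 probes fell, and this became 3, 3 and 16 without replicates 1, 2 and 3 with stellate cells, and 3, 2 and 2 without replicates 1, 2 and 3 of Capan1 alone.

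Several tested probes were held for 15 of the 56 genes. Further probes of member genes, among them CKAP5, KIF16B, KIF18A, STMN1, TUBA3D and TUBG1, were below the detection limit and were not tested. Calls differed between probes of CKAP2, KIF23, TUBB, TUBB6 and TUBG1, and the direction differed only for KIF1B, which did not pass with any of its 3 probes. With the brightest probe of each gene, 26 of 56 genes fell.

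Genes that work with these members were read as 10 lists in the same fit, with 1 probe for each gene. The passenger complex and mitotic kinases were also mostly lower. Of 12 tested genes 10 fell, with a median change of -1.18. CDK1, the kinase that drives mitosis, read 9.46, 8.89 and 9.74 with stellate cells and 10.77, 10.80 and 10.81 without (-1.43 ± 0.20, 2.69-fold, adjusted p = 0.0027). CDCA8, the passenger subunit borealin, fell by 1.18 (adjusted p = 0.0129) and CCNB2, a mitotic cyclin, by 1.21 (adjusted p = 0.0187). BIRC5 and PLK1 did not pass, and in both replicate 3 overlapped the arrays without stellate cells. The count of 10 became 1, 2 and 12 without replicates 1, 2 and 3 with stellate cells, and 1 in each fit without 1 array of Capan1 alone. Promoters of these 12 genes held TTTGAA in 8 and CCAAT in 10.

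In the other lists 1 gene passed, where 4.02% of all tested probes did. Of 15 tested genes for tubulin modification and severing 1 fell, TTL, the ligase that puts tyrosine back on alpha-tubulin, which read 8.62, 8.74 and 9.12 against 9.63, 9.57 and 9.84 (-0.85 ± 0.17, adjusted p = 0.0194), but did not pass in 5 of the 6 fits without 1 array. The severing subunit KATNA1 (-0.61, adjusted p = 0.0682) and SPAST (0.56, adjusted p = 0.122) did not pass. None passed in limma among 7 augmin genes, which branch spindle microtubules (median -0.32), 5 nucleation partners (-0.32), 17 end-binding and lattice proteins (0.20), 2 kinesin light chains and adaptors (-0.10), 17 dynein and dynactin genes (0.06), 20 tubulin folding genes (-0.23), 1 further stathmin (0.13) and 9 cytokinesis partners (0.17). Nearest to the threshold were MZT1, a small subunit of the gamma-tubulin ring (-0.67, adjusted p = 0.0600), and HAUS1 of augmin (-0.65, adjusted p = 0.120). NDE1 (-0.47) and NDEL1 (0.48), related dynein regulators, had opposite signs, and their groups did not overlap in either case, but neither passed (adjusted p = 0.155 and 0.160). Without replicate 3 with stellate cells, where 1392 of all tested probes were lower and 1352 higher, the counts lower were 3 for augmin, 1 for nucleation partners, 1 for end-binding and lattice proteins, 1 for light chains, 2 for dynein and dynactin, 5 for folding and 2 for modification and severing. The counts higher were 1 for end-binding and lattice proteins (MTUS1), 2 for dynein and dynactin (NDEL1 and DYNC1LI2), 2 for modification and severing (SPAST and VASH1) and 2 for cytokinesis partners (SPAST and SEPTIN9).

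The captured layer carried the markers of Capan1 epithelium. All 10 of its markers were tested, none fell, and MUC1 (1.19) and ELF3 (1.07) rose. Of 22 stellate cell and fibroblast markers 8 were tested, 1 fell (COL6A1, -1.31) and none rose. Of all tested probes 2.00% were called lower and 2.01% higher. TAGLN passed detection on all 3 arrays with stellate cells and on none without, but not the test (adjusted p = 0.0674). ACTA2, of the same list, had the opposite sign (-1.04, adjusted p = 0.0526) with no overlap between groups, and passed detection on 2 arrays with stellate cells and 3 without. Without replicate 3 with stellate cells TAGLN and COL6A3 were higher, COL6A1 and ACTA2 lower, and KRT8 and CLDN7 higher beside MUC1 and ELF3. In that fit 1392 of the 18165 tested probes were lower and 1352 higher. COL6A1 passed in 2 of the 6 fits without 1 array. The part of other cells in the member changes was not tested. Intensities of the 8 tested stellate cell and fibroblast markers were summed on the linear scale. The log2 of that sum was 13.60 to 14.20 with stellate cells and 13.50 to 13.78 without. Nearly all of the sum came from S100A4. Of the 22 listed, 13 were detected on at least 1 array and 9 on none. Those 9 were COL1A2, FN1, THY1, PDGFRA, PDGFRB, DES, FAP, LUM and FBN1. COL3A1, COL5A1, SPARC, POSTN and DCN were detected on at least 1 array but below the limit for testing. Which group's arrays detected them is not given here. COL1A1 and COL6A2 passed detection on 2 arrays with stellate cells and 3 without, and VIM on all 3 of each group.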

How the data were processed

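Biotinylated RNA of laser-captured Capan1 cells was read on Illumina BeadChips, 3 arrays for each group. Per the file headers, the deposited table pairs every array's probe intensity with its detection p-value, and no normalization between arrays had been applied. The submitters' processing notes give BeadStudio and GenomeStudio 2011.1, and what each did is not given in the sources used here.

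In limma 3.58.1 (R 4.3.3) the intensities went through normexp background correction, with negative control levels inferred from the detection p-values (770 steps) and an offset of 16, then quantile normalization and log2. A probe was tested where its detection p was under 0.05 on at least 3 arrays, which kept 18165 of 47228. Group means were fitted with lmFit, and eBayes used an intensity trend. Tests were two-sided, and p-values were adjusted by the Benjamini-Hochberg method across every tested probe. The fit was also run on simulated levels with known changes added. The simulated levels had independent normal noise, no outlying array and no background or normalization step. That run therefore cannot show how far the calls depend on single arrays. The number of arrays limits the precision. The authors' deposited value table, of intensity on a linear scale, not centred, with medians of 122.90 to 122.96, served as an alternative. Symbols came from the platform annotation, updated by gene ID through RefSeq GRCh38.p14, which matched all 74 member probes. Of the tested probes 13986 had 1 symbol, 3 had several and 4176 were not named. Promoters are RefSeq's. Partner and marker genes were each read by 1 probe.

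The members, lists and motifs were chosen with earlier results of these data known. Within each role group, array values are given for up to 4 members of smallest p, up to 2 of highest mean, and for TOP2A, MKI67 and STMN1, and of each partner list up to 3 of smallest p could be named. BIRC5, PLK1 and some second probes were added after their values were seen. Figures were drawn with matplotlib 3.10.9. Counts of the partner and marker lists without single arrays were added after the data were seen.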

Additional observations from a re-analysis of the deposited data

How the results depend on the processing

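All 36 member probes that fell stayed below zero under every one of 18 alternatives, but fewer or more passed. The 36 were picked by the main fit on these same arrays, and their groups did not overlap. Their sign could therefore hardly turn, and its constancy is not a separate test. Beside the 36 lower and 0 higher, and the 364 lower and 366 higher of all probes, the fit with no intensity trend gave 18 member probes lower, with 191 lower and 201 higher of all probes, 9 of the spindle, cytokinesis and chromosome probes and 2 of the tubulins. Array weights gave 52 members lower, among them 1 other kinesin and 16 tubulins, and 3 higher. Of all probes 1725 were then lower and 1632 higher. Array brightness as a covariate gave 21 members lower, with 11 spindle, cytokinesis and chromosome probes and 2 tubulins among them. Of all probes 145 were then lower and 133 higher. Median scaling gave 40 members lower, with 437 lower and 83 higher of all probes. Arrays with the same replicate number did not deviate together (correlations of -0.02, -0.03 and 0.08, and not every array correlated best with its own number). The replicate block gave 38 members lower and 1 higher (KIF13B, adjusted p = 0.0438 in limma), with RACGAP1 and KIF22 passing and CKAP5 not, and the authors' deposited table gave 1 higher (TUBG2). Leaving out 1 array gave 6 to 51 members lower and 0 to 3 higher, 65 to 1392 and 88 to 1352 of all probes, 3 to 13 mitotic kinesins, 1 to 22 spindle, cytokinesis and chromosome probes and 2 to 16 tubulins. The cause of these shifts was not tested.

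Reversals were seen only in probes that had not passed, and passing had already selected probes far from zero relative to their standard error. TUBGCP6 turned to 0.0057 without background correction, 0.0023 with an offset of 50, 0.16 with weights, 0.036 with brightness and 0.0065 in the authors' table. Median scaling gave TUBAL3 -0.14, KIF7 -0.0058, KIFC2 -0.10, KIF3B -0.12 and -0.13, and KIF1B -0.19 and -0.13. Weights gave TUBAL3 -0.20 and KIF1B -0.019. Brightness gave TUBB3 0.31, TUBGCP2 0.070 and KIF1B 0.021. Leaving out 1 array gave ranges that cross zero for TUBAL3 (-0.13 to 0.27), TUBB3 (-0.28 to 0.13), TUBGCP2 (-0.089 to 0.096), TUBGCP6 (-0.17 to 0.23), KIF3B (-0.059 to 0.35), KIF21A (-0.11 to 0.014) and the KIF1B probes (-0.0085 to 0.15, -0.34 to 0.086 and -0.17 to 0.26).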
